A study of Mus musculus with 8 samples.

Results

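Skeletal muscle genes were followed across 8 arrays of mouse skin. The set holds 35 genes of the contractile apparatus, its calcium supply and its energy metabolism. They were chosen by name, with earlier results of these data known. All 35 were measured, among 19935 genes in all. For 1 of the 35 (Trdn) several probe sets, 19 in all, carried the name, and the brightest on average stands for the gene. The arrays cover 4 wild-type samples (Adam10 wildtype) and 4 Adam10 knockout samples of Mus musculus, 1 array each. Adam10 is a membrane protease that releases the outer parts of Notch receptors and other surface proteins. The titles mark the knockouts as cKO and give each sample a P with a number, 57 to 60 for wild-type arrays 1 to 4 and 67, 68, 69 and 55 for knockout arrays 1 to 4. Neither the driver of the deletion nor the age, strain or number of animals is stated, and the samples are called both skin tissue and primary skin cells. Values are intensities on the log2 scale. A level can be followed for 1 gene across arrays, while levels of different genes on an array are not comparable, because their probes differ. The p-values measure the spread between these samples, whose separate animal origin is not stated. In tissue samples, fewer cells of a type and less RNA per cell cannot be told apart.

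Mouse skin lies on a thin sheet of skeletal muscle, the panniculus carnosus, beneath the fat of the dermis, so a piece of skin can carry muscle with it. A muscle fibre shortens when myosin of the thick filament pulls on actin of the thin filament. Calcium from the sarcoplasmic reticulum permits this by binding troponin C. Fast and slow fibres build the same machine from different isoforms of myosin, troponin and the calcium pump, and developing fibres use embryonic and perinatal myosins before the adult ones.

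All 8 arrays carried strong keratinocyte signal. The keratins Krt5 and Krt14 of the basal epidermis lay between 11.04 and 12.40 on every array. Pairwise correlations over all genes ran from 0.955 to 0.994, and wild-type array 4 had the lowest mean correlation with its own group (0.969). Adam10 stood at 7.39, 7.33, 7.06 and 7.34 in wild type and at 6.85, 7.00, 7.04 and 6.79 in the knockout. The difference was -0.36 (SE 0.11, n = 4 and 4, limma adjusted p = 0.064), with all knockout values below all wild-type values and an exact two-sided permutation p of 0.0286, the smallest that 70 assignments allow. The Y-linked gene Eif2s3y was high, between 6.68 and 6.84, on wild-type arrays 2, 3 and 4 and knockout arrays 2 and 3, and between 1.99 and 2.38 on the others.

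Muscle transcripts were concentrated on 2 of the wild-type arrays. Relative to the median of wild-type arrays 1 and 2 and the 4 knockout arrays (called the 6 low arrays here), the 35 genes had a median of 3.29 on wild-type array 4. Their median on wild-type array 3 was 1.09. The same medians over all genes were -0.02 and -0.01. The genes and the arrays set aside were chosen with earlier results of these data known. The shares of all genes given here are therefore descriptions and test nothing. On the other arrays the 35 genes lay at -0.04 and 0.17 in wild type and between -0.07 and 0.05 in the knockouts. Wild-type array 4 had the highest value of the 8 arrays for 34 of the 35 genes (19.2% of all genes), and for 27 of them wild-type array 3 came second (4.82% of all genes). At least a 2-fold excess over the 6 low arrays was reached by 29 of the 35 genes on wild-type array 4, while 19 reached it on wild-type array 3, against 3.29% and 0.727% of all genes. Summed over the 35 genes, the linear intensity was 516 to 662 units on the 6 low arrays, 1868 on wild-type array 3, rising to 10944 on wild-type array 4.

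**Figure D1:**
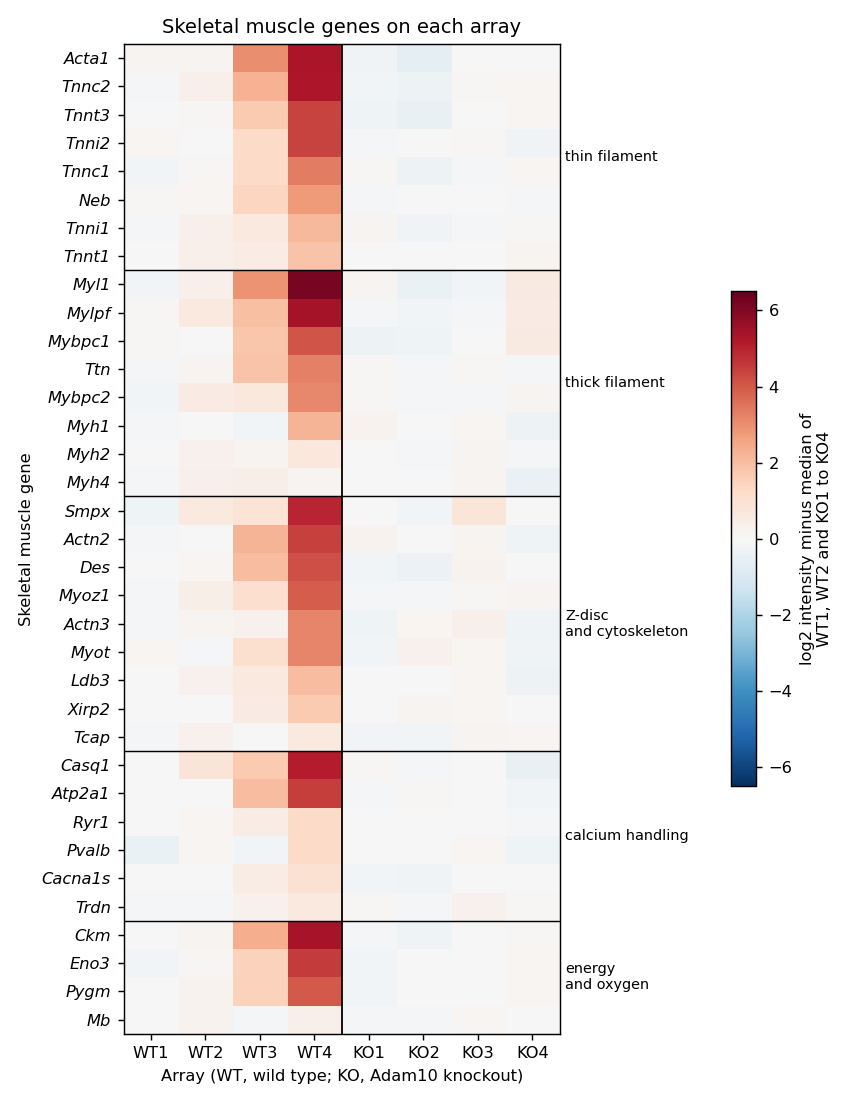
Heat map of the 35 muscle genes (rows, grouped by role) on the 8 arrays (columns), coloured by log2 intensity minus the median of the 6 low arrays. The column of wild-type array 4 is high for all but a few genes, with a median of 3.29, the column of wild-type array 3 is intermediate at 1.09, and the other 6 columns are near 0.

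The thin filament genes were all raised on wild-type array 4. Acta1, the skeletal alpha-actin, read 6.13, 6.10, 8.96 and 11.25 on wild-type arrays 1 to 4 and 5.68, 5.30, 5.91 and 5.95 on knockout arrays 1 to 4. This put wild-type array 4 at 40.0-fold and wild-type array 3 at 8.19-fold the median of the 6 low arrays. Even the lower wild-type arrays lay just above the highest knockout array. Tnnc2, the calcium-binding troponin C of fast fibres, read 4.23, 4.63, 6.54 and 9.57 in wild type and 4.09, 3.96, 4.35 and 4.44 in the knockout. Tnnc1, its counterpart in slow fibres and heart, read 3.87, 4.12, 5.29 and 7.36 against 4.11, 3.71, 3.95 and 4.17. For both troponins C, wild-type arrays 1 and 2 fell within or near the knockout range and arrays 3 and 4 lay above it. Tnnt3 and Tnni2, the fast tropomyosin-binding and inhibitory subunits, stood 21.1-fold and 20.7-fold above the 6 low arrays on wild-type array 4. Their slow counterparts Tnnt1 and Tnni1 stood 3.55-fold and 4.27-fold above. Neb encodes nebulin, a giant protein that runs along the thin filament. It read 3.02, 3.08, 4.31 and 5.73 in wild type and 2.84, 2.95, 2.94 and 2.85 in the knockout, again with no overlap between the groups. Such a lack of overlap, for 2 of the 35 genes (5.71%), was about as frequent among all genes (5.86%).

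Thick filament genes split by isoform. Myl1, an alkali light chain of fast myosin, showed the largest excess of the 35 genes. Its values were 2.99, 3.47, 6.08 and 9.31 in wild type and 3.33, 2.74, 2.99 and 3.72 in the knockout, which is 71.1-fold above the 6 low arrays on wild-type array 4, compared with 7.54-fold on wild-type array 3. Mylpf, the regulatory light chain of fast myosin, reached 9.76 on wild-type array 4 (42.7-fold), compared with 6.30 on wild-type array 3 and 4.15 to 4.97 elsewhere. The myosin-binding proteins Mybpc1, named for slow fibres, and Mybpc2, named for fast fibres, stood 17.2-fold and 8.83-fold above. Ttn encodes titin, the elastic scaffold of the sarcomere, and read 5.19 on wild-type array 3, then 6.63 on wild-type array 4, against 3.21 to 3.51 elsewhere.

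The adult fast myosin heavy chains, the motor proteins of adult fast fibres, differed from each other. Myh2 and Myh4 stayed within 2-fold of the 6 low arrays on wild-type arrays 3 and 4, and Myh1 was raised on wild-type array 4. Myh4, the IIb heavy chain, read 2.64, 3.03, 3.09 and 2.90 in wild type and 2.77, 2.68, 2.91 and 2.28 in the knockout. It was the 1 gene of the 35 whose highest value was not on wild-type array 4. Myh2, the IIa chain, read 3.01, 3.33, 3.22 and 3.69 against 3.05, 2.98, 3.20 and 2.91. Myh1, the IIx chain, read 2.79, 2.89, 2.67 and 5.06 against 3.06, 2.79, 2.95 and 2.50. Myh1 was thus raised on wild-type array 4 (4.67-fold) and lay within the range of the 6 low arrays on wild-type array 3. Myh2 and Myh4 read low on every array, and no detection call was available. Whether their values stand above background was not tested.

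Developmental isoforms, which are not among the 35 genes, were high on both wild-type arrays 3 and 4. Myh8, the perinatal heavy chain, read 3.47, 3.81, 7.30 and 9.83 in wild type and 3.57, 3.39, 3.58 and 4.04 in the knockout. It stood 76.6-fold above the 6 low arrays on wild-type array 4, compared with 13.2-fold on wild-type array 3. Myh3, the embryonic chain, read 3.13, 3.37, 5.98 and 7.36 against 3.35, 2.94, 2.84 and 3.01. Both were high on the same 2 arrays as Acta1 and Myl1. Actc1, the cardiac alpha-actin that developing skeletal muscle also makes, and Myl4, an embryonic and atrial light chain, stood 47.5-fold and 13.0-fold above on wild-type array 4. In the list of 10 heart muscle markers that holds both, no other member reached 2-fold on that array. The slow heavy chain Myh7, which like Myl4 was picked after its values were seen, read 3.59 to 4.17 in wild type and 3.48 to 3.74 in the knockout. The heavy chain genes are close relatives, so probes of 1 can bind transcripts of another, and how far this touches the values was not tested.

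**Figure D2:**
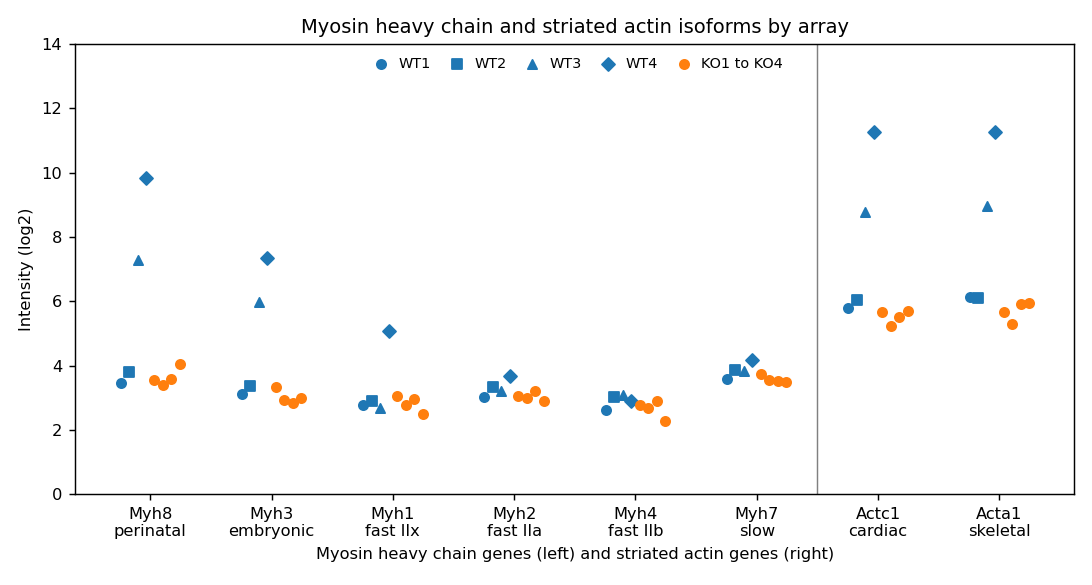
Log2 intensity of 6 myosin heavy chain genes and 2 striated actin genes on each array (blue, wild-type arrays 1 to 4 by symbol; orange, the 4 knockout arrays), to be compared between arrays within a gene. Myh8, Myh3, Actc1 and Acta1 separate wild-type arrays 4 and 3 from the rest, Myh1 separates wild-type array 4 alone, and Myh2, Myh4 and Myh7 vary by under 2-fold around the 6 low arrays.

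The start regions of 3 of these genes are shown as examples of high and low excess. Myl1 and Acta1 were among the largest excesses on wild-type array 4, and Myh4 had the smallest of the 35 (1.13-fold). Each sequence is the 250 bases before an annotated transcript start, 5′ to 3′, from RefSeq on GRCm38.p6. For Acta1 and Myh4 that start is the 5′ end of the gene, and for Myl1 it is an internal start, 2876 bases inside the gene. They lie at chr1:66945057-66945306 (minus strand) for Myl1, chr8:123894776-123895025 (minus strand) for Acta1 and chr11:67237562-67237811 (plus strand) for Myh4. Capitals mark matches, on either strand, to the E-box CANNTG that myogenic factors bind, to TATAAA, to the M-CAT element CATTCC, to the MEF2 box and to the CArG box bound by serum response factor. In Myh4 a MEF2 box and a TATAAA overlap.
Myl1: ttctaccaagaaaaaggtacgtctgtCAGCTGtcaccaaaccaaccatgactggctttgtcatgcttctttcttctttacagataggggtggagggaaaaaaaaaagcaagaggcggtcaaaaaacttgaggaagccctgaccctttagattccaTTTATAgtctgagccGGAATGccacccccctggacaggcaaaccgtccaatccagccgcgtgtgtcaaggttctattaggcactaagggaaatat
Acta1: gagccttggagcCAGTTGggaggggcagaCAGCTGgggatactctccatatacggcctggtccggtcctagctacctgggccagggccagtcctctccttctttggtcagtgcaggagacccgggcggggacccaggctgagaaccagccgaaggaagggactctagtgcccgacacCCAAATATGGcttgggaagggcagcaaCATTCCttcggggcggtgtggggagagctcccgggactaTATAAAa
Myh4: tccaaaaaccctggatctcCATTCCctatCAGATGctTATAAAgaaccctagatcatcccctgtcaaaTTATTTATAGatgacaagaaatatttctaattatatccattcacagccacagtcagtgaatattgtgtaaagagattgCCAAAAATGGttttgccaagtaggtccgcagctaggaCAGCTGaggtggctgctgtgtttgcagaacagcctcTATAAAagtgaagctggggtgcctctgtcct
The table of start regions held 27 of the 35 genes, with 32 windows of 250 bases. An E-box was present in 78.1% of these windows and in 66.2% of all 32851 windows, TATAAA in 15.6% and 12.4%, and M-CAT in 25.0% and 12.6%. A MEF2 box was present in 15.6% against 2.92% and a CArG box in 12.5% against 1.47%, which is 5 and 4 windows. These windows belong to 5 and 3 genes, because some genes have several windows. These letter matches are descriptions. Myh4 held a match to each of the 5 motifs and Acta1 to all but the MEF2 box, while their values on wild-type array 4 differed as given above.

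Genes of the Z-disc, which anchors the thin filaments, and of the cytoskeleton around it were raised on wild-type array 4 in 8 of 9 cases by at least 2-fold. Actn2, the alpha-actinin found in all fibres, read 4.08, 4.21, 6.37 and 8.60 in wild type and 4.40, 4.13, 4.36 and 3.88 in the knockout. Actn3, the alpha-actinin of fast fibres, read 3.57, 3.85, 3.97 and 6.85 against 3.41, 3.78, 4.01 and 3.41. Wild-type array 3 was thus high for Actn2 and inside the knockout range for Actn3. Smpx, a small protein of the costameres, which tie the sarcomere to the membrane, was also far higher on wild-type array 4 than on wild-type array 3, with 2.22 on wild-type array 3, 6.27 on wild-type array 4 and 1.06 to 2.09 elsewhere. Des, which encodes the intermediate filament desmin, stood 18.2-fold above on wild-type array 4, compared with 3.98-fold on wild-type array 3. Myoz1 (15.4-fold), Myot (8.92-fold), Ldb3 (3.95-fold) and Xirp2 (3.27-fold), all Z-disc or actin-binding proteins, followed on wild-type array 4. Tcap, which caps titin at the Z-disc, read 4.34 there against 3.49 to 3.97 on the 6 low arrays and 3.64 on wild-type array 3.

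Calcium handling genes differed among themselves. Casq1, the calcium store protein of the sarcoplasmic reticulum, read 3.20, 4.02, 4.92 and 8.28 in wild type and 3.28, 3.14, 3.21 and 2.70 in the knockout. Atp2a1, the calcium pump of fast fibres, read 4.11, 4.07, 6.11 and 8.59 against 3.97, 4.18, 4.09 and 3.92. Both separated wild-type arrays 3 and 4 from all others. Pvalb encodes parvalbumin, a calcium buffer of adult fast fibres, and read 3.49, 4.01, 3.71 and 5.14 against 3.86, 3.93, 4.04 and 3.64, with wild-type array 3 inside the knockout range. The release channel Ryr1 stood 2.39-fold above on wild-type array 4 and the voltage sensor Cacna1s 1.96-fold. The result for Trdn, which encodes the triad protein triadin, depended on the probe set. The probe set kept showed a rise of 0.62 on the log2 scale, while the 19 probe sets ran from -0.08 to 3.21 with a median of 1.22, and 11 of them reached 2-fold.

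Among the genes of energy supply, Ckm, the muscle creatine kinase, read 4.60, 4.80, 6.99 and 9.96 in wild type and 4.49, 4.35, 4.62 and 4.71 in the knockout. The glycolytic enzyme Eno3 stood 23.0-fold and the glycogen phosphorylase Pygm 16.1-fold above the 6 low arrays on wild-type array 4. Mb encodes myoglobin, the oxygen store of oxidative fibres. It read 4.74, 5.03, 4.64 and 5.12 in wild type and 4.64, 4.64, 4.90 and 4.82 in the knockout. Mb therefore stayed within 1.26-fold of the 6 low arrays on wild-type array 4, where Ckm stood 40.7-fold above them.

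Among the 35, fast and slow fibre genes were both raised on wild-type array 4. Outside the 35, only 2 of 8 other slow fibre genes reached 2-fold there. Those 8 had a median rise of 0.43, from -0.54 for Atp2a2 to 4.59 for Casq2. The 12 fast fibre genes had a median rise of 3.77, from 0.18 for Myh4 to 6.15 for Myl1. The 4 slow fibre genes (Tnnt1, Tnni1, Tnnc1 and Mybpc1) had a median of 2.71, from 1.83 to 4.10, inside the range of the fast genes. On wild-type array 3 the medians were 0.97 and 0.95. The excess of wild-type array 3 over the 6 low arrays, on the linear scale, was then set against that of wild-type array 4, for the 29 genes with at least a 2-fold excess there. It came to a median of 12.0%. For the 4 slow fibre genes it was 15.3% to 17.2%, and for the 10 fast fibre genes that qualified it had a median of 7.33% and ran from -9.13% for Pvalb to 14.1% for Atp2a1. These ranges did not overlap, but the 2 slow fibre genes outside the 35 with at least a 2-fold excess, Casq2 and Myoz2, had shares of 7.73% and 8.35%, inside the fast range. All of these genes were selected by their excess on wild-type array 4, which is the denominator of the share. The developmental genes lay at 16.2% (Myh8), 16.2% (Actc1), 16.5% (Myl4) and 35.2% (Myh3), and Ttn and Neb at 29.9% and 26.8%. Each share rests on 1 array over 1 array and has no error of its own. Across the 35 genes, the rises on the 2 arrays had a Pearson r of 0.87 and a Spearman rho of 0.88. Over all genes r was 0.62 and rho 0.50. Both rises were measured against the same 6 low arrays.

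**Figure D3:**
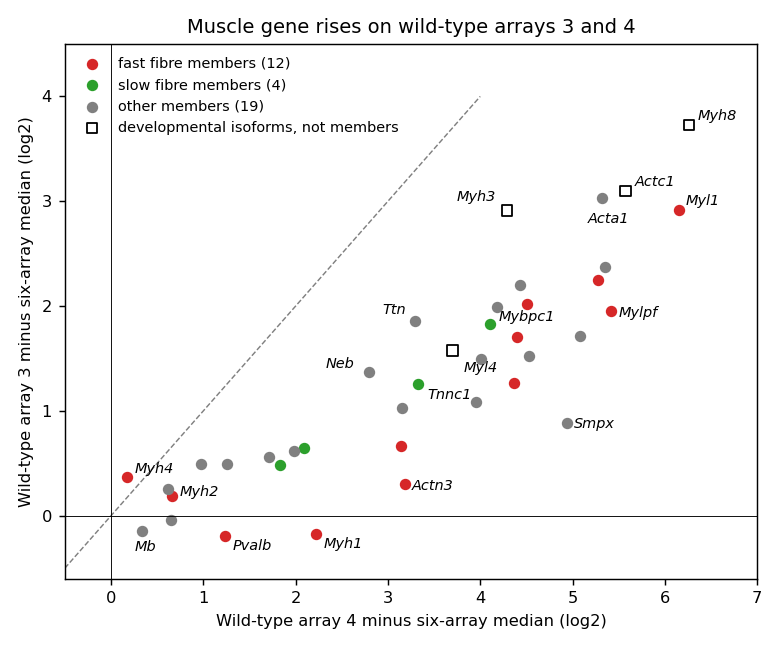
Rise of each muscle gene on wild-type array 3 (vertical axis) against its rise on wild-type array 4 (horizontal axis), both as log2 intensity minus the median of the 6 low arrays, with the dashed line marking equal rises (red, 12 fast fibre genes; green, 4 slow fibre genes; grey, the other 19; open squares, developmental isoforms outside the 35). Most genes follow 1 band below the line, while Actn3, Smpx, Myh1 and Pvalb, at 0.30, 0.89, -0.17 and -0.19 on the vertical axis, lie beneath it and Myh3 and Myh8 along its upper edge.

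Other muscle genes, from lists of genes outside the 35, gave a graded picture. On wild-type array 4, at least a 2-fold excess was seen for 16 of 32 other sarcomere genes, 12 of 19 muscle metabolism genes, 9 of 25 genes of the triad, membrane and neuromuscular junction, 8 of 19 myogenic factors and developmental myosins and 2 of 8 other slow fibre genes. On wild-type array 3 the counts were 3, 1, 0, 3 and 2. Among the sarcomere genes Myom1, a protein of the M-line, and Tpm2, a tropomyosin, stood 3.35 and 3.16 above the 6 low arrays on the log2 scale on wild-type array 4. Srl, a sarcoplasmic reticulum protein, and Cacna2d1, a calcium channel subunit, stood 2.44 and 1.92 above. The slow fibre genes Casq2 and Myoz2 stood 4.59 and 4.24 above. Car3, a carbonic anhydrase of muscle and fat, stood 7.26 above and Cox8b, a respiratory chain subunit, 4.86. Wild-type array 2 was higher than wild-type array 3 for both Car3 (5.97 against 4.59) and Cox8b (4.39 against 4.11), unlike the order seen for Acta1 or Myl1.

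Markers of other tissue layers moved on the same arrays. Of 12 dermal fibroblast markers, 10 exceeded the 6 low arrays by at least 2-fold on wild-type array 4, while 7 did on wild-type array 3. Their summed intensity was 1116 to 7816 units in wild type and 1323 to 1458 in the knockout. Of 11 adipocyte markers, 9 did so on wild-type array 4, against 1 on wild-type array 3, with sums of 174 to 1657 units in wild type and 149 to 165 in the knockout. Muscle and dermal signal was thus shared by both arrays. The adipocyte markers had a median of 2.90 on wild-type array 4, 0.11 on wild-type array 3 and -0.10 to 0.12 on the 6 low arrays. Their sums on wild-type arrays 1 to 3 (174, 209 and 195 units) still lay above the knockout range. The list medians on these arrays (-0.06, 0.11 and 0.11) lay inside the knockout range (-0.10 to 0.12). Adipoq, which fat cells secrete, read 1.93, 2.07, 2.19 and 7.90 in wild type. Of 10 mast cell markers, 7 were raised by 2-fold on wild-type array 4, against 5 on wild-type array 3, and their sums ran from 166 to 1556 units in wild type and from 198 to 231 in the knockout. With 8 arrays, limma called only Kit from this list, and in the opposite direction. Its knockout values (6.94 to 7.27) all exceeded its wild-type values (5.89 to 6.12), with a difference of 1.09 (limma adjusted p = 0.0010). Without wild-type arrays 3 and 4, limma also called 2 of the 10 lower in the knockout, as it did 1.68% of all genes. They were Hdc (-0.55, limma adjusted p = 0.025) and Tpsb2 (-0.52, limma adjusted p = 0.0497). Of 10 blood endothelial markers, 9 were raised on wild-type array 4, against 1 on wild-type array 3, with sums of 116 to 558 units in wild type and 115 to 137 in the knockout. The 11 keratinocyte markers had a median of -0.67 on wild-type array 4. Their sums were 22276 to 29106 units over the wild-type arrays, against 28872 to 31104 in the knockout. With 8 arrays, limma called 6 of them higher in the knockout, as it did 6.41% of all genes. The differences of 4 others, Krt1, Krt10, Dsp and Lor, lay below 0 (-0.17 to -0.04). Without wild-type arrays 3 and 4 it called 3 higher (Dsg3, Itgb4 and Sfn), against 2.96% of all genes. Of 10 macrophage markers, limma called 5 lower in the knockout, as it did 2.34% of all genes. No marker in these lists was at 0. The part of these layers in the muscle values was not tested.

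**Figure D4:**
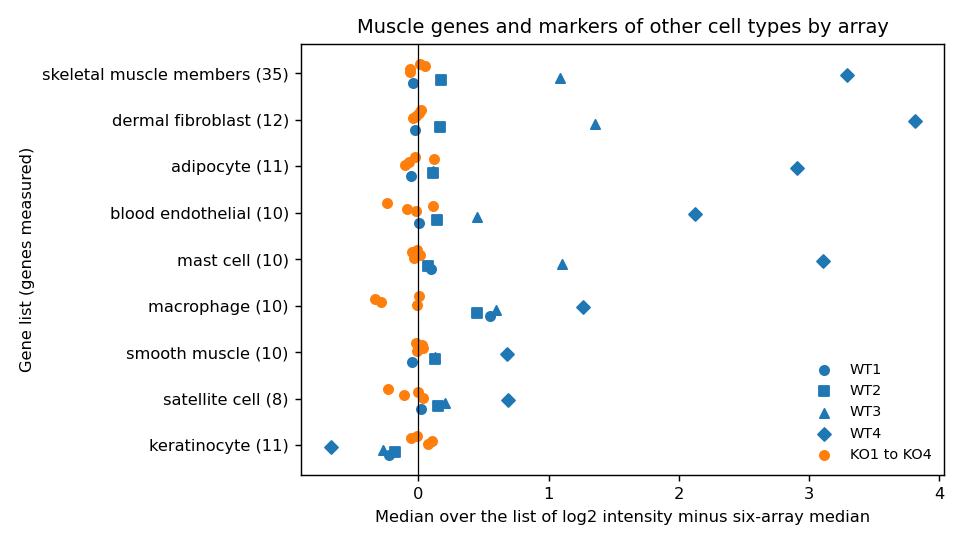
Median over each gene list of log2 intensity minus the median of the 6 low arrays, by array (blue, wild type by symbol; orange, the 4 knockout arrays). Wild-type array 4 stands apart for muscle (3.29), dermal (3.82), mast cell (3.11) and adipocyte (2.90) lists, wild-type array 3 for muscle (1.09), dermal (1.36) and mast cell (1.10) lists, and keratinocyte markers are lowest on wild-type array 4 (-0.67).

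Compared by genotype, all 35 genes had a lower mean in the knockout (49.6% of all genes did), and none passed the threshold. With 4 against 4 arrays, limma called 0 of the 35 at an adjusted p under 0.05, where 8.75% of all 19935 genes were called, 6.41% higher and 2.34% lower in the knockout. The adjusted p-values ran from 0.15 to 0.76. At an unadjusted p under 0.05, 5 of the 35 were lower (Acta1, Cacna1s, Casq1, Neb and Ldb3), 14.3% against 8.80% of all genes in that direction. With 1 array left out, that count was 27 without wild-type array 1, 21 without array 2, 0 without array 3 and 5 without array 4. It was 0 without knockout array 1, 2 or 4 and 1 without knockout array 3. The share of all genes at that unadjusted threshold was not counted for these fits, so their counts have no background. At an adjusted p under 0.05, leaving out wild-type arrays 1 to 4 in turn called 1914, 992, 750 and 1997 of all genes and 0 of the 35. The exact permutation test gave its smallest two-sided p of 0.0286 for Acta1 and Neb, the 2 genes without overlap between the groups (5.86% of all genes did not overlap in that direction), and no gene passed after adjustment over all genes. The median difference over the 35 genes was -1.17 on the log2 scale, against 0.00 over all genes, and 21 of the 35 differences were below -1 (1.01% of all genes). Without wild-type array 4 alone the median was -0.43. With array weights, limma called 3 of the 35 lower (Acta1, Neb and Cacna1s, smallest adjusted p = 0.030). That setting called 3621 of all 19935 genes in either direction, a larger share than among the 35.

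The size of these differences came with an equally large spread in wild type. Acta1 was at 8.11 ± 2.49 in wild type and 5.71 ± 0.30 in the knockout (SD, n = 4). The means differed by -2.40 (SE 0.96, limma adjusted p = 0.15). Myl1 was at 5.46 ± 2.90 and 3.20 ± 0.43, and its means differed by -2.27 (SE 1.12, limma adjusted p = 0.24). The median SD over the 35 genes was 1.59 among the wild-type arrays and 0.17 among the knockout arrays, where all genes had 0.18 and 0.15. The SD was larger in wild type for 34 of the 35 genes, Myh4 being the exception. By fibre type the median differences were -1.27 for fast genes (-2.27 to -0.22) and -0.98 for slow genes (-1.52 to -0.63). Those ranges overlapped.

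Without wild-type arrays 3 and 4, the differences were far smaller. These arrays were set aside for the very signal compared here, so the comparison of the remaining 2 wild-type with 4 knockout arrays describes what they leave. The median difference over the 35 genes was -0.12, against 0.01 over all genes, and the differences ran from -0.53 for Casq1 to 0.17 for Trdn. Limma called 0 of the 35 (4.64% of all genes, 2.96% higher and 1.68% lower), with adjusted p-values from 0.24 to 0.98. At an unadjusted p under 0.05, 2 of the 35 were lower, Acta1 (-0.40, SE 0.18) and Casq1 (-0.53, SE 0.23), against 7.33% of all genes in that direction and 19.8% in either. None of the 35 lay below -1 (0.537% of all genes). A small offset remained in that 30 of the 35 differences lay below 0, as did 48.5% of all genes. That count was 23 with quantile normalization, 24 with cyclic loess and 28 with median centring. The share of all genes was not counted for those fits. Wild-type array 2 was above wild-type array 1 for 27 of the 35 genes (55.5% of all genes) and highest of the 6 arrays for 17 (24.4% of all genes). Knockout array 2, in turn, had the lowest value of the 6 for 12 (12.1% of all genes), and dropping it kept 25 differences below 0. Dropping wild-type array 2 instead kept 16, with a median of 0.02, but then wild-type array 1 alone stood for its group. Dropping any of the others kept between 27 and 32. Fast and slow fibre genes had medians of -0.14 and -0.10 over the 6 arrays.

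**Figure D5:**
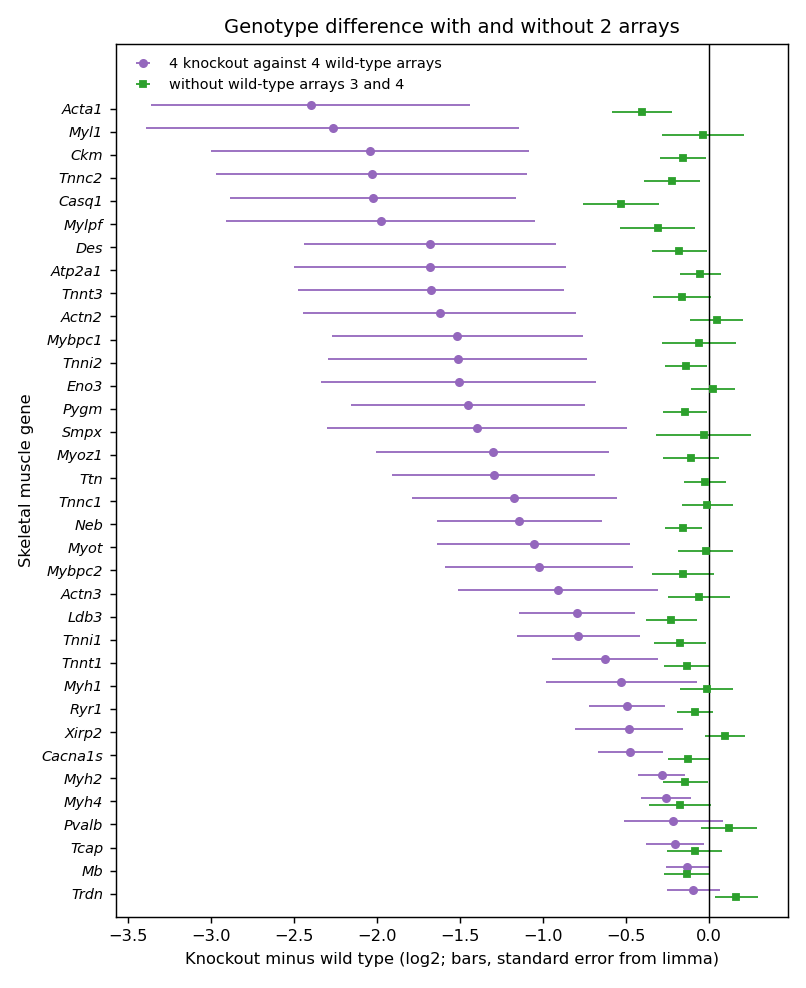
Knockout minus wild type for each of the 35 muscle genes on the log2 scale, with standard errors from limma, for all 8 arrays (purple circles) and without wild-type arrays 3 and 4 (green squares). With all arrays the values run from -2.40 (Acta1) to -0.09 (Trdn) with wide bars, and without the 2 arrays they run from -0.53 to 0.17.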

How the data were processed

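RNA of 8 skin samples, 4 wild type and 4 Adam10 knockout, was hybridised to Affymetrix Mouse Gene 1.0 arrays as biotin-labelled cRNA, per the labels' protocols. The deposited values are intensities, 1 for each array and probe set. The authors used RMA (a method which corrects background, normalizes between arrays and summarises probes), per the submitters' processing notes. Of RMA, the version and settings, like the build, were not given in the sources used here. The intensities ran from 0.817 to 11173 with array medians of 13.3 to 15.1, so they were read as linear and log2 was taken with no pseudocount. Arrays give no depth, and their number limits the precision.

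Of 35519 probe sets, 21780 carried exactly 1 gene symbol in the platform annotation, 1605 several and 12134 none. The probe set with the highest mean was kept for each of 998 genes with several, leaving 19935 genes. All 35 muscle genes matched RefSeq (GRCm38.p6) by Entrez identifier with the same symbol. No filter was applied.

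Genotypes were compared with limma 3.58.1 in R 4.3.3 (lmFit and eBayes, two-sided, Benjamini-Hochberg over all 19935 genes, threshold 0.05), and repeated without wild-type arrays 3 and 4. The script was tested on simulated data. Exact permutation tests used 70 assignments. The 35 genes, the lists and the arrays set aside were chosen with earlier results of these data known. All 35 genes are described, and from each other muscle list the 2 genes farthest from the 6 low arrays on wild-type array 4. Genes outside the muscle lists are the 15 with the largest such excess, leaving out predicted genes. The closing part gives the effect of other normalizations, filters, prior settings, thresholds and left-out arrays.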

Additional observations from a re-analysis of the deposited data

Results flagged for a closer look

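In each group of 4 arrays, the gap between the most extreme value and its neighbour was set against the group's whole range. Of 72 such groups (the 35 muscle genes and Adam10 in both genotypes), 4 had a ratio above Dixon's critical value, or 5.56%, and chance gives about 1 in 20. Wild-type array 4 stood alone for the IIx myosin heavy chain Myh1 (0.909) and for the fast alpha-actinin Actn3 (0.877). Most other muscle genes were not singled out, because wild-type array 3 lay between wild-type array 4 and the rest. Mylpf was highest on knockout array 4, at 4.90 against 4.15 to 4.28 on the other knockout arrays (0.832). Adam10 was lowest in wild type on array 3 (0.831), at 7.06.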

How the results depend on the processing

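Each result was recomputed under 21 alternatives with 8 arrays and 17 with 6. The count of muscle genes higher in the knockout was 0 in every one. The count lower was 0 except with array weights, where 3 passed (Acta1, Neb and Cacna1s at -2.40, -1.04 and -0.47) and Pvalb turned to 0.074. With those weights and 8 arrays, 3621 of all 19935 genes were called. Leaving out 1 array gave 0 calls each time, with the smallest adjusted p from 0.069 without wild-type array 1 to 0.30 without knockout array 2. With 1 array left out of 8, the median difference ran from -1.60 (wild-type array 1) to -0.43 (wild-type array 4). It was -1.68 with dim genes left out and -0.12 without wild-type arrays 3 and 4. Over the arrays left out singly, Myh1 ran from -0.75 to 0.044, Pvalb from -0.41 to 0.13 and Trdn from -0.18 to 0.053, each positive with wild-type array 4 left out. Without both wild-type arrays 3 and 4, Actn2, Xirp2, Pvalb, Trdn and Eno3 turned to 0.047, 0.096, 0.12, 0.17 and 0.025. With the 6 arrays, leaving out 1 array moved the median from -0.23 to 0.019 for all muscle genes and from -0.25 to 0.021 for the fast fibre genes. Adam10 passed with quantile normalization (-0.49), cyclic loess (-0.52), log2 of the value plus 16 (-0.32), and at -0.36 with dim genes left out, with a trended and robust prior or at a threshold of 0.10. Leaving out dim genes kept 9 of the 35 muscle genes with 8 arrays and 6 with 6 arrays, so its medians are over those. No paired analysis was possible because the replicate numbers follow the order of the samples and pair nothing. Where leaving out 1 array left a single wild-type array, that array was assumed to vary like the rest. Causes not shown by a value were not tested. Signal over background was not available here, so low values have no detection call. Examples are Smpx and Xirp2 on the 6 low arrays, and Myh2 and Myh4 on every array.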

Other observations

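Outside the muscle lists, the 15 named genes with the largest excess on wild-type array 4 included genes known from the extracellular matrix, fat and mast cells. They were led by Aspn, a small leucine-rich protein of the extracellular matrix, at 5.36 on wild-type array 3, then 8.61 on wild-type array 4, against 1.51 to 2.46 on the 6 low arrays. Dpt (6.28 above the 6 low arrays on the log2 scale), Lum (5.48), Col3a1 (5.39) and Sparcl1 (4.75) are also matrix proteins. Cpa3 (6.11) and Mcpt4 (5.09) are mast cell proteases. Fabp4 (6.05), Adipoq (5.94) and Cd36 (5.92) belong to fat cells and lipid uptake. Mest (6.02), Dlk1 (4.74), Agtr2 (5.07) and Itm2a (4.84) were raised as well, as was Actc1 (5.57). Mest and Dlk1 are imprinted genes with high expression in fetal and newborn tissue. Among these 15 genes the rise on wild-type array 3 ran from 0.23 for Adipoq to 3.60 for Cpa3. Ucp1, the uncoupling protein of brown fat, read 2.91, 4.73, 3.00 and 6.41 on wild-type arrays 1 to 4 and 3.06 to 3.18 in the knockout, so that wild-type array 2 stood second for it. Fabp4 had the same order, with 4.70 on wild-type array 2, above the 4.30 of wild-type array 3.

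Of 103 measured genes in the 5 other muscle lists, limma with 8 arrays called 6 (5.83%), a share below the 8.75% called among all genes. Ankrd23, an ankyrin repeat protein of muscle, read 5.66, 5.73, 5.65 and 5.94 in wild type and 4.55, 4.68, 4.53 and 4.77 in the knockout (difference -1.12, limma adjusted p = 0.00086). Lmod2, an actin nucleator, differed by -0.55, with its highest values on wild-type arrays 3 and 4 (3.88 and 3.94), and the glycolytic enzyme Aldoa by -0.56. Higher in the knockout were the ubiquitin ligase Fbxo32 (0.80) and the transcription factors Mef2a (0.76) and Pax3 (0.81). Of the 10 heart muscle markers, 3 were called lower, Myl7 (-0.86), Tnnt2 (-0.61) and Nppa (-0.49), as were 2.34% of all genes. Without wild-type arrays 3 and 4, Myl7 and Nppa still passed, where 1.68% of all genes were called lower. In the 5 other muscle lists, limma then called 5 of the 103 genes (4.85%), close to the 4.64% of all genes. Ankrd23 and Mef2a still passed. Tpm1, a tropomyosin also made outside muscle, passed as higher in the knockout at 1.53 (limma adjusted p = 0.0028), as did Fhl1 (0.65) and Cryab (0.86). With all 8 arrays the Tpm1 difference was 0.70 (limma adjusted p = 0.35), where wild-type arrays 3 and 4 read 7.42 and 8.75 against 6.59 and 6.23 on wild-type arrays 1 and 2. All of these genes were picked because they passed.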
